A study of Mus musculus with 42 samples.

Results

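The response of the odorant receptors (ORs) to acetophenone (ACT) was set against their response to the thiazoline odorant TMT (2,5-dihydro-2,4,5-trimethylthiazoline), both at 0.1% (v/v). For each of the 1088 intact ORs, all of the ORs in the tables of these experiments, the difference is the log2 change of 0.1% ACT over no odor minus the log2 change of 0.1% TMT over no odor. A value above 0 means that the OR rose more, or fell less, with ACT than with TMT. Of the 42 samples of the study, 12 enter this difference: 3 mice exposed to 0.1% ACT with 3 no odor mice, and 3 mice exposed to 0.1% TMT with 3 other no odor mice. All were C57BL/6 mice of 20 to 22 days of age, and all libraries came from the olfactory epithelium by pS6-IP-Seq. Replicates are litters whose mice shared their sex, so an exposed mouse is read against the no odor mouse of its litter, and the 3 ACT litters are other litters than the 3 TMT litters. The libraries held 63971 to 117967 counts on ORs, and in each of them between 1013 and 1049 ORs had a count. The number of mice, 3 per group, and these depths limit the precision. Markers of other cell types were not analysed here, as the tables hold ORs only. In the label of the 0.1% TMT mouse of litter 1, the name of a file says 1%, while its odor label and the R code of the study say 0.1%, which is followed here; without this litter 7 ORs were higher with ACT and 8 with TMT, against 7 and 9 with it. A library labelled 1% ACT, used only for comparison, went against its label in the ORs described here, and its values are given with the 1% results.

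ORs are G protein-coupled receptors of the olfactory sensory neurons, and a mature neuron expresses a single OR gene. When an odorant activates the receptor, the neuron fires and its ribosomal protein S6 becomes phosphorylated. An antibody against phosphorylated S6 (pS6) then pulls down ribosomes with the messenger RNA of the active neurons, so the RNA of an activated OR is enriched. ACT is a sweet-smelling aromatic ketone, long used to study the receptors M71 and M72, and TMT is a sulfur compound of fox secretions that mice avoid. In such bulk samples, more active neurons of an OR and more OR RNA in each of them cannot be told apart.

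In edgeR's quasi-likelihood test with litter as a block, 7 ORs had a higher response to ACT than to TMT, which is 0.643% of the 1088 ORs tested, and 9 had a higher response to TMT, which is 0.827% (n = 3 litters per odorant; Benjamini-Hochberg adjusted p below 0.05 over all ORs). Before adjustment, 29 and 30 ORs had a p below 0.05. The 7 ORs higher with ACT were Olfr923, Olfr983, Olfr889, Olfr145, Olfr913, Olfr1377 and Olfr901, in the order of their differences. The 9 ORs higher with TMT were Olfr1395, Olfr1297, Olfr165, Olfr186, Olfr164, Olfr196, Olfr1352, Olfr362 and Olfr61.

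The differences came from rises with the one odorant and little change with the other. All 7 ORs higher with ACT also rose in the test of ACT over no odor, by 1.40 to 3.72 on the log2 scale, while their changes with TMT lay between -0.72 and 0.49 and none of them passed. Of the 9 ORs higher with TMT, 8 rose with TMT, by 1.27 to 3.06, and their changes with ACT, from -0.47 to 0.14, did not pass. Olfr362 differed otherwise: it fell by 0.99 on the log2 scale with ACT (adjusted p = 0.0367, edgeR) and its change with TMT was 0.38 (adjusted p = 0.946). In the same fit, 10 ORs rose with ACT (0.919% of the ORs) and 1 fell (0.0919%), and 10 rose (0.919%) and 3 fell (0.276%) with TMT. No OR passed in both tests in the rising direction.

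**Figure D1:**
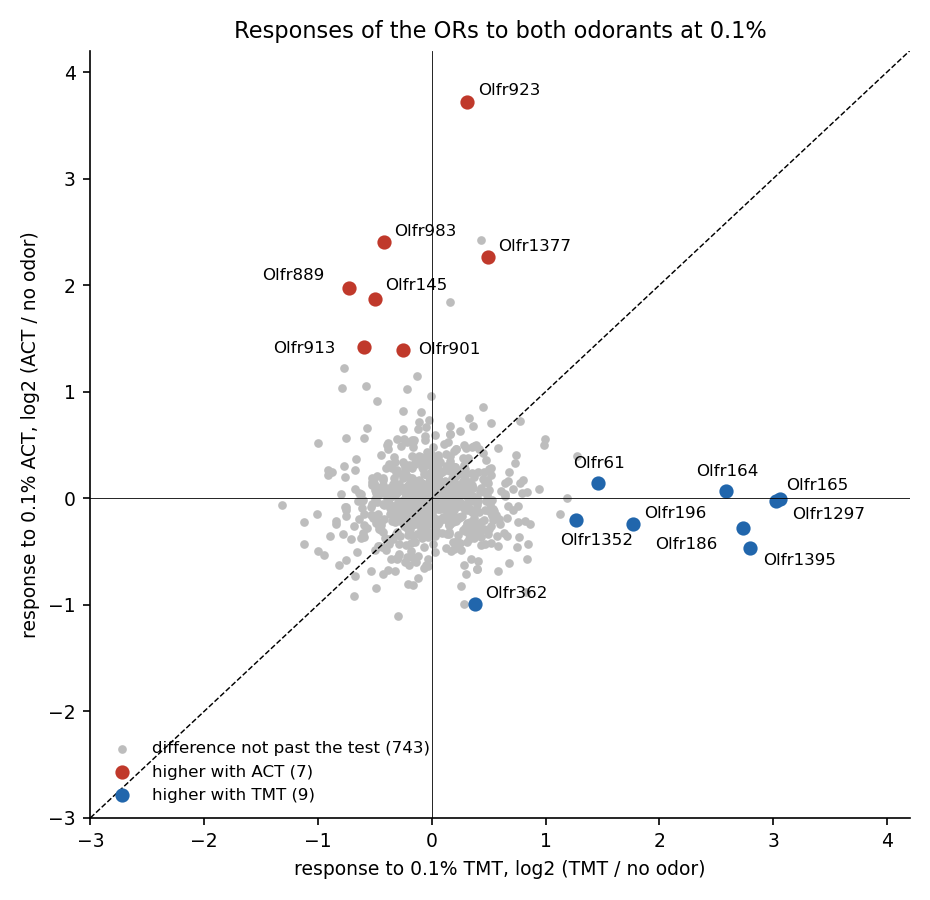
Each point is an OR with a mean normalized count of at least 20 (759 ORs), placed by its log2 response to 0.1% TMT (x axis) and to 0.1% ACT (y axis), both over no odor; on the dashed line both responses are equal. The 7 ORs higher with ACT (red) stand above the cloud with TMT responses between -0.72 and 0.49, 8 of the 9 ORs higher with TMT (blue) stand to its right, and Olfr362 lies below it.

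Over the 759 ORs with a mean normalized count of at least 20, the responses to ACT and to TMT had a Pearson's r across ORs of -0.0076 and a Spearman's rho of 0.0237, and without the 16 ORs above r was 0.0427 over 743 ORs. These are descriptions across ORs, which share the libraries and the scaling but no mice between the odorants. The difference had a median of -0.00369 over all ORs, and its quartiles were -0.364 and 0.356.

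ORs share a family motif, aspartate-arginine-tyrosine at the inner end of the third membrane helix. The stretch around it was picked for this motif, so bases in common there follow from the choice and do not compare the odorants. It is given here for the ORs with the smallest p in each direction, Olfr983 and Olfr923 for ACT and Olfr1395 and Olfr1297 for TMT, as 60 bases of the coding strand, 5′ to 3′, from the GENCODE M21 transcripts (GRCm38). Capitals mark the 32 bases that are the same in all 4.
Olfr983: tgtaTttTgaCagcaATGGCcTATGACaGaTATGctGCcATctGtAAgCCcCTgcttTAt
Olfr923: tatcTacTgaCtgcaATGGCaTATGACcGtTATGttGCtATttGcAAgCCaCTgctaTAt
Olfr1395: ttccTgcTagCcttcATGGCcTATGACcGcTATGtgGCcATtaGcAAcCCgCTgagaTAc
Olfr1297: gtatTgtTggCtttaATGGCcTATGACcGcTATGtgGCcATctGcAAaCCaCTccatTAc
The stretches lie at chr9:40092560-40092619 (minus strand), chr9:38828047-38828106 (plus strand), chr11:49148598-49148657 (plus strand) and chr2:111621677-111621736 (minus strand), in the coding exon of each gene.

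Olfr923 had the largest difference of the ORs that passed. Its normalized counts (counts scaled to a common library size) were 1739.7, 2249 and 704 in the ACT mice of litters 1, 2 and 3, against 76.6, 107 and 148 in their no odor littermates. In the TMT mice they were 90.7, 114 and 110.0, against 73.9, 86.8 and 92.5 without odor. All 3 ACT mice were above the other 9 libraries, and the ACT mouse of litter 3 was the lowest of the 3. The difference was 3.41 ± 0.45 (SE, adjusted p = 1.98e-06, edgeR), with a 95% interval of 2.48 to 4.33. Olfr923 lies on chromosome 9, at chr9:38826545-38830300 (GRCm38, the build of the deposited tables; gene bounds of GENCODE M21).

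Olfr983, on the same chromosome at chr9:40086908-40093595, had the next largest difference among the ORs higher with ACT. It had 390.3, 659 and 174 normalized counts with ACT and 53.3, 84.9 and 69.3 in the littermates without odor. With TMT it had 79.7, 83.1 and 64.3, against 97.3, 116 and 90.1 without odor. The ACT mice did not overlap with any other group, and every TMT mouse was a little below its littermate. The difference was 2.82 ± 0.38 (SE, adjusted p = 3.65e-07, edgeR), interval 2.06 to 3.59, of which 2.40 was the response to ACT and -0.42 that to TMT.

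Olfr145, known from earlier work as a receptor for ACT, had 707, 749.9 and 235 normalized counts with ACT, against 161, 102 and 159 without odor. Its TMT mice had 128, 106 and 58.1, against 154, 144 and 102. The rise with ACT was small in litter 3, and all 3 TMT mice were below their littermates. The difference was 2.37 ± 0.43 (SE, adjusted p = 0.000482, edgeR). Olfr889 was a low OR, with 149, 107 and 32.4 normalized counts with ACT and 16.7, 21.8 and 24.7 in the littermates, and 25.8, 18.2 and 10.1 with TMT against 24.6, 28.6 and 31.7. Its difference was 2.69 ± 0.60 (SE, adjusted p = 0.00676, edgeR). In litter 3 the ACT mouse was close to its littermate, and the TMT mouse of litter 3 was the lowest of all 12.

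The other ORs higher with ACT had smaller differences or wider spreads. Olfr913 had 290.2, 158 and 58.02 normalized counts with ACT against 38.9, 63.01 and 56.96, so litter 3 showed almost no rise, and 25.8, 22.1 and 33.3 with TMT against 29.3, 34.3 and 60.9. Its difference was 2.01 ± 0.52 (SE, adjusted p = 0.0361, edgeR). Olfr1377, the only one of these ORs that is not on chromosome 9 (it is at chr11:50981967-50986593), had 553, 421 and 157 with ACT against 86.6, 78.97 and 50.3. Its TMT mice had 74.8, 72.7 and 61.2 against 43.4, 21.7 and 98.6: they were alike, and the no odor littermates spread more widely. The difference was 1.77 ± 0.44 (SE, adjusted p = 0.025, edgeR). Olfr901 had 269.9, 344 and 91.3 with ACT against 84.4, 119 and 48.4, and 56.4, 45.4 and 72.8 with TMT against 64.5, 42.3 and 108, a difference of 1.65 ± 0.36 (SE, adjusted p = 0.00364, edgeR). Its rise with ACT was seen in each litter but its level without odor varied widely among the litters.

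**Figure D2:**
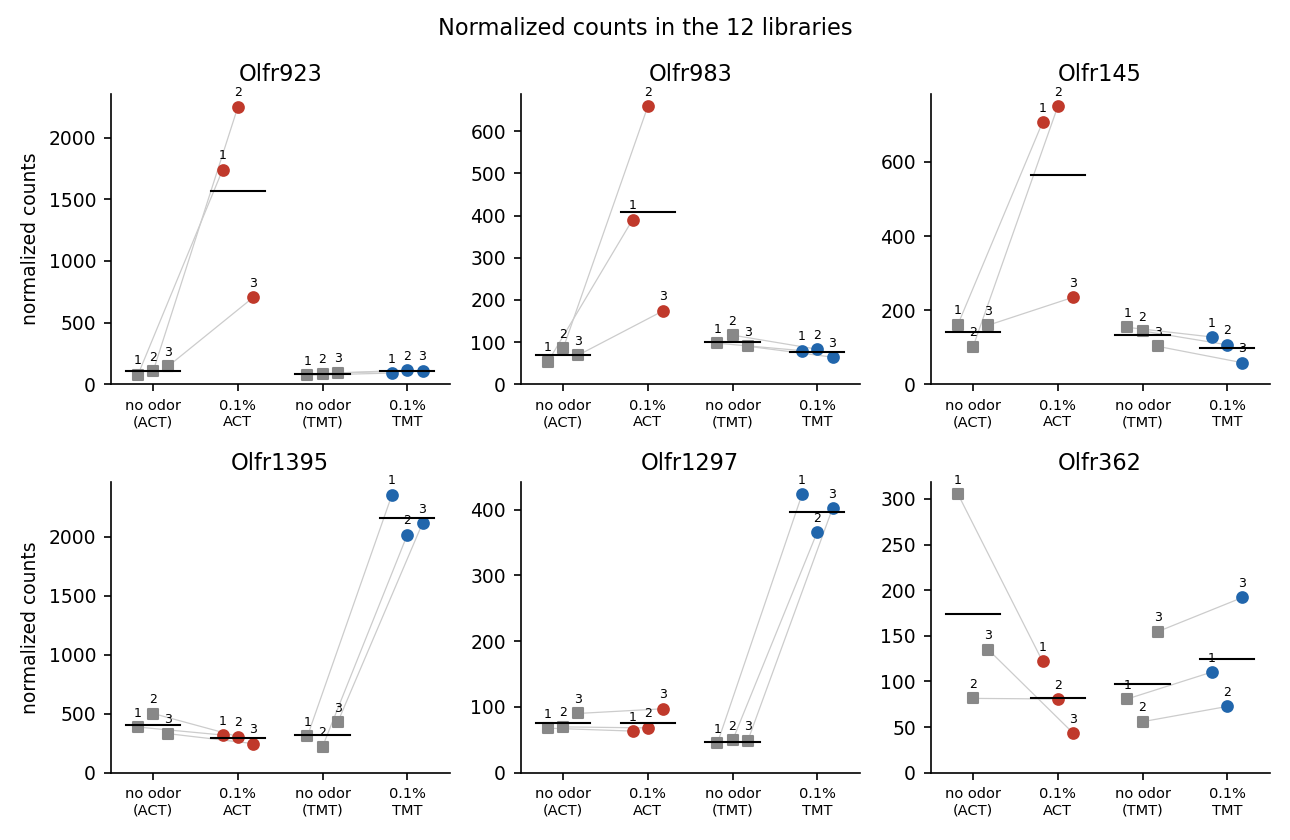
Normalized counts (y axis, from 0) of 6 ORs in the 12 libraries, by group (x axis); numbers are litters, thin lines join littermates, and black bars are means of 3. Olfr923, Olfr983 and Olfr145 were high in the 0.1% ACT mice with litter 3 the lowest of these, Olfr1395 and Olfr1297 were high in the 0.1% TMT mice, and Olfr362 spread from 43.5 to 305 with its ACT mice below or level with their littermates.

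Among the ORs higher with TMT, Olfr1395 had the highest level and the largest difference. It had 2359, 2018 and 2117 normalized counts in the TMT mice, against 308, 223 and 431 without odor. In the ACT mice it had 319.9, 307 and 247, against 388, 502 and 331. The TMT mice were all above the other 9 libraries, and the ACT mice were each somewhat below their littermates. The difference was -3.27 ± 0.37 (SE, adjusted p = 7.27e-09, edgeR), interval -4.01 to -2.53. Olfr1395 is on chromosome 11, at chr11:49142274-49150453.

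Olfr1297, at chr2:111615233-111626497, was lower and very even. The TMT mice had 423, 366 and 402 normalized counts and their littermates 44.6, 49.1 and 48.7, while the ACT mice had 63.4, 68.2 and 97.3 and theirs 67.8, 69.7 and 90.2. Its response to ACT was 0.00, so the difference of -3.06 ± 0.35 (SE, adjusted p = 7.6e-09, edgeR) was the response to TMT alone. The no odor mice of the ACT litters were all above those of the TMT litters, by less than the rise with TMT.

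Olfr165 and Olfr164 are neighbours on chromosome 16, at chr16:19406244-19423134 and chr16:19284104-19314064. Olfr165 had 209.7, 210.3 and 276 normalized counts with TMT against 31.7, 19.4 and 35.3, and 31.3, 20.2 and 33.3 with ACT against 34.4, 24.4 and 26.6, a difference of -3.04 ± 0.42 (SE, adjusted p = 5.71e-07, edgeR). Olfr164 had 103, 193 and 176 with TMT against 26.97, 26.3 and 23.1. With ACT it had 30.5, 25.3 and 26.5 against 11.1, 34.4 and 36.1, where the no odor mouse of litter 1 stood apart, so that litter alone gave a rise with ACT. The difference of Olfr164 was -2.51 ± 0.49 (SE, adjusted p = 0.000623, edgeR).

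Olfr186 and Olfr196 lie farther along the same chromosome, at chr16:59025797-59030291 and chr16:59166647-59170454. Olfr186 had 314, 250.5 and 245 normalized counts with TMT against 46.9, 54.8 and 23.1, and 62.6, 60.6 and 63.1 with ACT against 93.3, 75.6 and 59.8. Its difference was -3.01 ± 0.37 (SE, adjusted p = 3.74e-08, edgeR), and the 3 ACT mice were nearly equal. Olfr196 had 209.7, 105 and 130.1 with TMT against 38.7, 34.3 and 53.6, and 43.02, 69.9 and 48.6 with ACT against 72.2, 68.9 and 49.4, a difference of -2.02 ± 0.41 (SE, adjusted p = 0.00097, edgeR). The TMT mouse of litter 1 was the highest for both ORs.

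The remaining 3 had smaller differences. Olfr1352 had 253, 126 and 189.7 normalized counts with TMT against 101, 45.7 and 91.3, and 105, 114 and 69.97 with ACT against 98.9, 133 and 97.8, a difference of -1.47 ± 0.34 (SE, adjusted p = 0.00726, edgeR). Olfr61 had 155, 252 and 235 with TMT against 69.2, 103 and 60.9, and 82.1, 80.8 and 64.8 with ACT against 64.4, 95.8 and 50.3, a difference of -1.32 ± 0.36 (SE, adjusted p = 0.0361, edgeR). For both, each TMT mouse was above its littermate. Olfr362 had 122, 80.8 and 43.5 with ACT against 305, 81.5 and 135, and 110.4, 72.7 and 192 with TMT against 80.9, 55.96 and 155. Its difference was -1.37 ± 0.37 (SE, adjusted p = 0.0361, edgeR), although its groups overlapped in level, and litter 2 showed no fall with ACT.

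The ORs higher with ACT made up 0.612% to 0.729% of the OR counts in the no odor mice of the ACT litters and 4.44%, 5.37% and 2.02% in the ACT mice of litters 1, 2 and 3. In the TMT experiment the same ORs made up 0.536% to 0.654% without odor and 0.47% to 0.557% with TMT. The ORs higher with TMT made up 4.33% to 4.57% in the TMT mice, against 0.691% to 1.03% in their littermates, and 0.932% to 0.968% in the ACT mice, against 1.15% to 1.34%. These shares describe ORs chosen by the difference.

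Read litter by litter, 15 of the 16 ORs had 3 ACT changes that did not overlap with the 3 TMT changes. The 16 were chosen by the difference in these same litters, so this describes them and is no further support. Over all ORs, the ACT litters were above the TMT litters for 53 ORs (4.87%) and below them for 64 (5.88%). The exception was Olfr1377, whose changes were 2.66, 2.40 and 1.62 with ACT and 0.77, 1.70 and -0.68 with TMT, in log2 of the normalized count plus 1. For Olfr923 the changes were 4.49, 4.38 and 2.24 with ACT and 0.29, 0.39 and 0.25 with TMT. For Olfr1395 they were -0.28, -0.71 and -0.42 with ACT and 2.93, 3.17 and 2.29 with TMT. The TMT litters of Olfr1395 lay close together, and the ACT litters of Olfr923 were farther apart.

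The ACT mouse of litter 3 had the smallest rise for all 7 ORs higher with ACT. Their median change was 2.85 in litter 1, 2.40 in litter 2 and 0.901 in litter 3, while over the 759 ORs it was 0.0181, -0.032 and -0.0259. For the 9 ORs higher with TMT, the medians were 2.41, 2.17 and 2.29 in the TMT litters. The scaling factor of the ACT library of litter 3 was 1.186 and that of its no odor littermate 1.113, the 2 highest of the 12; their part in the smaller rise was not tested. Without litter 3 of the ACT experiment, 9 ORs were higher with ACT, the 7 above together with Olfr1026 and Olfr890, and 6 were higher with TMT.

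**Figure D3:**
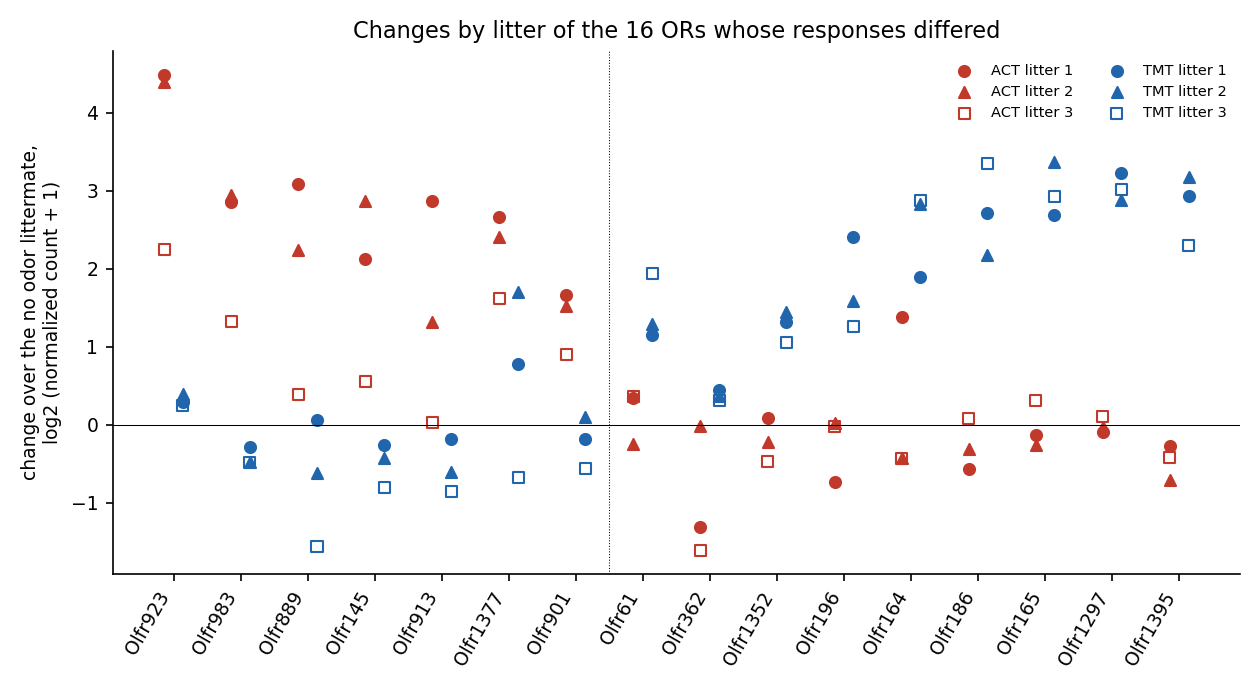
Change of each of the 16 ORs over the no odor littermate (y axis, log2 of the normalized count plus 1), by OR (x axis, ordered by the fitted difference); red marks are ACT litters and blue marks TMT litters, with circles, triangles and open squares for litters 1, 2 and 3. Left of the dotted line the red marks are above the blue ones except for Olfr1377, with ACT litter 3 lowest among the red, and right of it the blue marks are above the red.

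Over their whole coding sequences, an OR higher with ACT and an OR higher with TMT had 69.3% to 76.7% of their aligned bases in common (63 pairs, median 72.7%). Pairs of ORs higher with ACT had 70.7% to 86.5% (21 pairs, median 74.0%), and pairs higher with TMT 69.8% to 90.5% (36 pairs, median 73.8%). The closest pair was Olfr164 and Olfr165, with 90.5%, followed by Olfr889 and Olfr901 with 86.5%, Olfr901 and Olfr983 with 85.9%, and Olfr889 and Olfr983 with 85.0%. For 4 of the 16 ORs the closest of all ORs was itself among the 16 and higher with the same odorant, as for Olfr164 and Olfr165. For the others the closest OR did not pass. It was Olfr193 for Olfr196 (92.4% of the bases), with a difference of -1.02 ± 0.64 (SE, adjusted p = 1, edgeR), Olfr890 for Olfr889 (92.2%), with 1.99 ± 0.83 (adjusted p = 0.630), and Olfr1298 for Olfr1297 (91.9%), with -0.24 ± 0.61 (adjusted p = 1). For Olfr61 it was Olfr541 (91.1%), with -0.46 ± 0.34 (adjusted p = 1), and for Olfr145 it was Olfr874 (86.4%), with 1.28 ± 0.40 (adjusted p = 0.111). All ORs together had 529 differences above 0 and 546 below, and some closest relatives lay within 1 SE of 0. Of the 12 ORs whose closest relative did not pass, 10 had a relative of the same sign, with Olfr890 counted for Olfr889 and Olfr901. The other 2 were Olfr1352, whose closest OR Olfr57 (78.9%) had 0.19 ± 0.45 (adjusted p = 1), and Olfr983. Olfr888, the closest to Olfr983 (86.4%) with a mean of 6.92 normalized counts, had -1.06 ± 1.58 (adjusted p = 1).

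Reads of 50 bases can be hard to assign where ORs are alike. Of the 50-base stretches of their transcripts, Olfr61 shared 8.93% with other ORs, Olfr1377 6.65%, mostly with Olfr1378, Olfr889 4.00%, Olfr196 3.79% and Olfr901 2.38%. Olfr923, Olfr145, Olfr913, Olfr1395, Olfr164, Olfr186 and Olfr362 shared none, and the other 4 of the 16 shared 0.184% to 1.07%. Olfr164 and Olfr165, though neighbours, had no such stretch in common. For Olfr61, Olfr1377 and Olfr889 the counting could split reads with relatives, and their values are less certain.

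A further 8 ORs passed in the test of one odorant, while their difference did not pass. Olfr1026 rose with ACT by 1.84 (adjusted p = 0.000413, edgeR), with 135, 97.6 and 52.05 normalized counts against 29.99, 17.6 and 28.5, and its TMT mice had 39.2, 36.3 and 28.7 against 42.2, 19.4 and 32.9. Its difference was 1.68 ± 0.50 (SE, adjusted p = 0.0896, edgeR). Olfr890 rose with ACT by 2.43 (adjusted p = 0.00459), but at under 20 normalized counts in each TMT library its difference was 1.99 with an interval of 0.27 to 3.71 (adjusted p = 0.63). It shares 92.2% of its coding bases with Olfr889, and 4.05% of its 50-base stretches with other ORs. Olfr874 rose with ACT by 1.14 and had a difference of 1.28 ± 0.40 (SE, adjusted p = 0.111, edgeR).

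With TMT, Olfr531 rose by 1.19 (adjusted p = 0.00153, edgeR), from 461, 450.0 and 468 to 1156, 1062 and 939 normalized counts. Its ACT mice had 492, 338 and 419.8 against 473, 393 and 375, within the range of their littermates or near it. The difference of Olfr531 was -1.19 ± 0.35 (SE, adjusted p = 0.0711, edgeR), interval -1.88 to -0.49, just outside the threshold. Olfr376 was higher with both odorants in most litters. It had 308, 189 and 248 with TMT against 102, 137 and 129, a rise of 0.9988 (adjusted p = 0.0487), and 342, 187 and 136 with ACT against 140.0, 113 and 176, a change of 0.56 (adjusted p = 1). Litters 1 and 2 were higher with ACT and litter 3 was not, and the difference was -0.44 with an interval of -1.21 to 0.32. Olfr376 shares 5.24% of its 50-base stretches with Olfr20.

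The 3 ORs that fell with TMT were Olfr1276, Olfr550 and Olfr285. Olfr1276 fell by 1.31 on the log2 scale (adjusted p = 0.00377, edgeR), from 203, 99.4 and 140.0 to 124, 22.1 and 55.8 normalized counts, and had 54.8, 26.1 and 25.6 with ACT against 73.3, 21.00 and 24.7. Its levels without odor differed most between the experiments among the named ORs that passed a test, by -1.92 for ACT over TMT litters (adjusted p = 0.175). Olfr550, a class I OR, fell by 1.13 and Olfr285 by 1.00. Their differences of 1.25, 0.90 and 0.51 had adjusted p of 0.201, 0.501 and 1.

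At the threshold, the last ORs inside were Olfr913, Olfr61 and Olfr362, each with an adjusted p of 0.0361. The first outside were Olfr1225 (difference 1.51, adjusted p = 0.0684, edgeR), Olfr531 (0.0711) and Olfr1026 (0.0896). Olfr1225 had 70.4, 104 and 50.3 normalized counts with ACT against 54.4, 46.2 and 51.3, and 47.8, 29.9 and 45.7 with TMT against 149, 61.7 and 56.02. Its response to ACT was 0.52 and that to TMT -0.9984, neither past the test, so both parts of opposite sign made up the difference.

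A difference that did not pass does not show that an OR responded alike to ACT and TMT. Of the 759 ORs with a mean normalized count of at least 20, the 95% interval of the difference lay within 1 of 0 on the log2 scale for 207, and within 2 of 0 for 692. The median distance from the estimate to either end of the interval was 0.88. Among these ORs, 37 had a difference of more than 1 in size without passing the test.

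**Figure D4:**
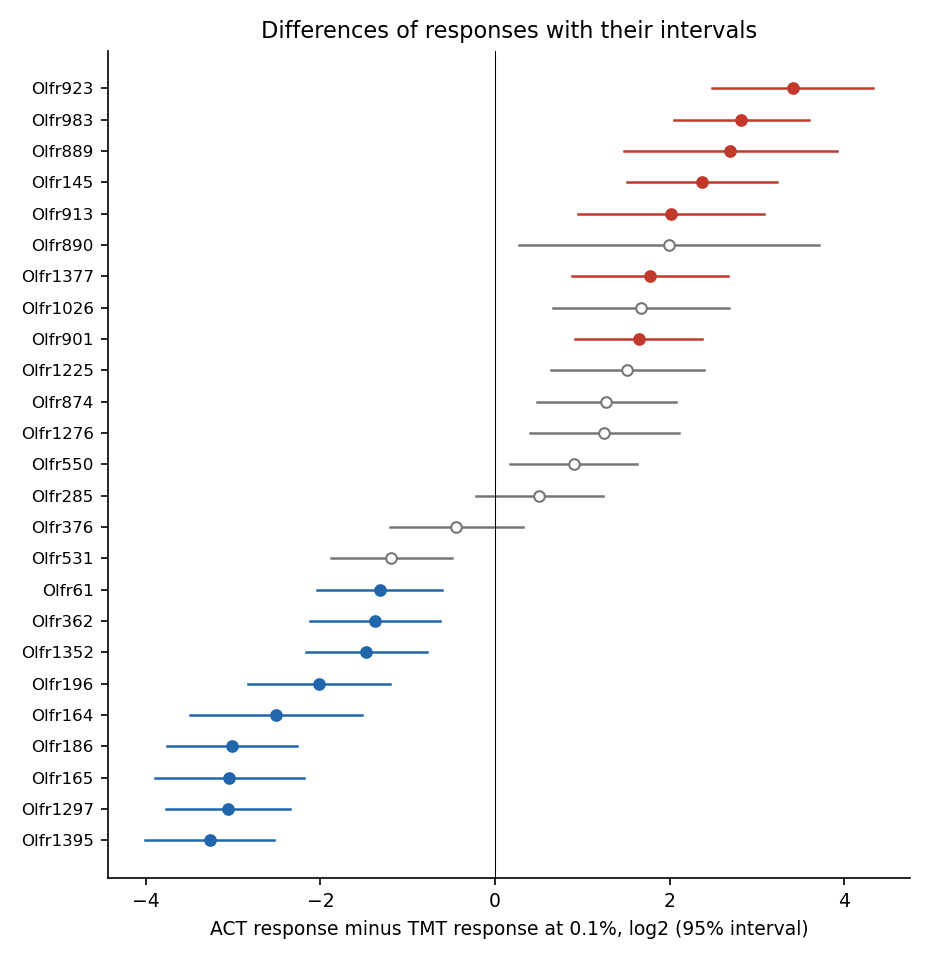
ACT response minus TMT response at 0.1% (x axis, log2) with its 95% interval, for the 16 ORs that passed (filled, red for ACT and blue for TMT) and 9 ORs that passed only in the test of one odorant or lay next to the threshold (open, grey). Olfr890 has the widest interval of these, 0.27 to 3.71, and the intervals of Olfr376 and Olfr285 include 0.

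Several ORs that the study describes for either odorant, mostly at other doses, had no difference past the test at 0.1%. The study names Olfr30, Olfr898 and Olfr907 for undiluted ACT, and Olfr506 and Olfr837 for undiluted TMT. It reports that none of these was significantly enriched by that odorant at 0.1%, so no rise at this dose was claimed for them. Olfr1427 is named there for the lowest dose of ACT. Olfr30 had 334 ± 69.5 normalized counts with ACT and 379 ± 79.00 without (mean ± SD, n = 3), and 357 ± 20.98 with TMT against 324 ± 65.6. Its difference was -0.34, interval -1.01 to 0.34. For Olfr506 the difference was 0.33 (-0.53 to 1.19), and for Olfr1427 -0.16 (-0.86 to 0.54). Olfr898, Olfr907 and Olfr837 were too low to say: Olfr898 had 4 to 18 counts per library, Olfr907 0 to 4 and Olfr837 0 to 18. Their intervals were -1.50 to 2.25, -6.72 to 4.45 and -3.67 to 3.38.

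Among receptors known from other work, Olfr160 (M72), an established ACT receptor, had 18.8, 24.4 and 29.9 normalized counts with ACT against 16.7, 16.8 and 25.6, and 20.8, 20.8 and 22.5 with TMT against 12.9, 21.7 and 30.4. Its difference was 0.29, interval -0.9962 to 1.58 (adjusted p = 1, edgeR), so a rise at this dose was not detectable at this depth. Olfr151 (M71) had 6, 3 and 0 counts in the ACT mice and 0 in the other 9 libraries, too few for a ratio, and 32.9% of its 50-base stretches also occur in Olfr160. The study states that its gene models correct a wrong annotation of Olfr151 to Olfr160. The part of this change in the counts of either OR was not tested. Olfr1019, known as a TMT receptor that contributes to freezing, had 53.95, 92.2 and 87.5 with TMT against 75.03, 41.1 and 75.5, and 81.4, 49.7 and 75.1 with ACT against 77.8, 58.8 and 56.01. The TMT mice of litters 2 and 3 were above their littermates and that of litter 1 below, and the difference was -0.21, interval -1.04 to 0.63. Olfr145 was the only one of these known receptors that passed.

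The no odor mice of the ACT and the TMT litters were compared to see whether the ORs began at the same level. No OR passed edgeR's test (0% of 1088 ORs; smallest adjusted p = 0.175), and before adjustment 36 were higher and 33 lower in the ACT litters at a p below 0.05. The ORs higher with ACT had baseline differences of -0.54 to 0.40, median 0.236. Of the ORs higher with TMT, 7 of 9 were somewhat higher without odor in the ACT litters, with a median of 0.473 on the log2 scale, against 0.0187 over all ORs, and up to 0.86 for Olfr186. Compared directly, without the no odor mice, the ACT and TMT mice differed past the test for 17 of the 1088 ORs, 14 of them among the 16. The 16 were called with these same exposed mice, so this is a description and no independent check. Of the 16, the 2 that did not pass were Olfr1352 (-0.98, adjusted p = 0.152) and Olfr362 (-0.61, adjusted p = 0.874).

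The same difference was measured in other mice at 1%, with other no odor mice, which gives a reading independent of the 0.1% libraries. All 7 ORs higher with ACT at 0.1% were above 0 at 1% as well, with differences of 0.69 to 3.80 and a median of 1.67. All 9 ORs higher with TMT were below 0, from -2.07 to -0.17, median -1.63. Over all ORs, 49.5% were above 0 and 49.6% below. At 1% the test of TMT over no odor was passed by 4 of the 9 in the rising direction (Olfr1352, Olfr164, Olfr165 and Olfr61), against 42 of all ORs (3.86%), and that of ACT by 1 of the 7 (Olfr913), against 9 of all ORs (0.827%). In the difference none of the 16 passed at 1%, where over all ORs 0 were higher with ACT (0%; 22 at an unadjusted p below 0.05) and 2 higher with TMT (0.184%), Olfr1160 and Olfr330.

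The count at 1% differed with and without 1 library, and the cause of this change was not tested. In the library labelled 1% ACT, litter 1, the 9 ORs higher with TMT at 0.1% rose over the no odor littermate by a median of 2.92, and the 7 higher with ACT by 0.134 (log2 of the normalized count plus 1). In the 1% ACT mice of litters 2 and 3 these medians were 0.389 and -0.334 for the ORs higher with TMT, and 1.33 and 2.19 for those higher with ACT. In the 1% TMT mice they were 2.79, 2.72 and 2.16 for the ORs higher with TMT. This library was known from earlier results to be high in ORs that TMT raises, so the counts without it are a description and no independent support. Without it and its littermate, edgeR's test at 1% gave 12 ORs higher with ACT (1.1%) and 28 higher with TMT (2.57%). Among them were 4 of the 7 ORs higher with ACT at 0.1%, namely Olfr923 with 4.70 (adjusted p = 4.8e-23), Olfr1377 with 3.24 (adjusted p = 2.87e-11), Olfr145 with 2.69 (adjusted p = 3.48e-08) and Olfr889 with 2.54 (adjusted p = 0.00627). Of the 9 higher with TMT, 8 passed, and Olfr362, at -0.47 (adjusted p = 0.989), did not. Olfr983, Olfr901 and Olfr913 had 0.95, 0.96 and 1.24 there and did not pass. That fit kept 2 ACT litters and 3 TMT litters, with 3 residual degrees of freedom, and edgeR shared its estimate of spread across ORs. For Olfr923 the SE was 0.43 there, against 1.28 with all litters at 1%. The very small p-values are therefore not a measure of the spread between mice.

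Whether the difference itself changed from 0.1% to 1% was tested over the 24 libraries of both. No OR passed (0% higher and 0% lower; smallest adjusted p = 0.756, edgeR), with 17 and 27 at an unadjusted p below 0.05. The largest change among the 16 ORs was that of Olfr983, -2.13 (adjusted p = 0.756). Its response to ACT was 2.40 at 0.1% and 0.70 at 1%. Without the 1% ACT mouse of litter 1, 0 ORs passed in the higher and 1 in the lower direction (0.0919%), Olfr1093, and Olfr983 had -1.88 (adjusted p = 0.192). Over the ORs averaging 20 counts or more, the changes largest in size were those of Olfr288 (-4.70), Olfr1160 (-2.90) and Olfr545 (-2.61), with adjusted p of 1, 0.846 and 0.846. Olfr288 had 0 to 246 normalized counts in the libraries at 0.1% and shares 28.4% of its 50-base stretches with Olfr287. Olfr1160 had a difference of 0.15 at 0.1% and -2.72 at 1%.

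Undiluted odorants, in libraries that share the no odor mice of 1%, gave 1 OR higher with ACT (0.0919%), Olfr397, and 1 higher with TMT (0.0919%), Olfr1395 at -2.27 (adjusted p = 0.0481, edgeR). Of the ORs higher with ACT at 0.1%, 6 of 7 were above 0, with a median of 0.751, and Olfr983 was at -0.02. With undiluted ACT, 1 of these 7 rose, Olfr923, against 37 of all ORs (3.4%), and with undiluted TMT 7 of the 9 ORs higher with TMT rose, all but Olfr362 and Olfr61, against 104 of all ORs (9.56%). The study, in its own analysis, reported more ORs enriched by undiluted ACT than by undiluted TMT, the reverse order of 37 and 104. The cause of this discrepancy was not tested. Across the odorants, 1 of the 9 ORs higher with TMT also rose with undiluted ACT, Olfr1352 by 1.29 (adjusted p = 0.0156, edgeR), and 0 of the 7 higher with ACT rose with undiluted TMT. Of those higher with TMT, 8 of 9 were below 0, with a median of -1.38. Before adjustment, 53 and 62 ORs had a p below 0.05. The coefficient of variation left after the litter effects, estimated by edgeR over all ORs together, was 0.306, against 0.252 at 0.1%. At 0.01%, whose no odor mice are those of 0.1%, no OR passed in the difference (0%; 23 and 8 ORs at an unadjusted p below 0.05), and the coefficient was 0.342. Olfr923 had a difference of 2.73 there and Olfr1395 of -2.17, with adjusted p of 0.282 and 0.132. In the test of 0.01% ACT over no odor, Olfr923 rose by 3.09 and Olfr983 by 2.02 (adjusted p = 0.00958 for each, edgeR). With 0.01% TMT, Olfr1395 rose by 1.94 (adjusted p = 0.017), Olfr1297 by 2.19 (0.0215) and Olfr165 by 2.18 (0.0377). The rest of the 16 did not rise past these tests. With shared no odor mice, this is no independent check of 0.1%.

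**Figure D5:**
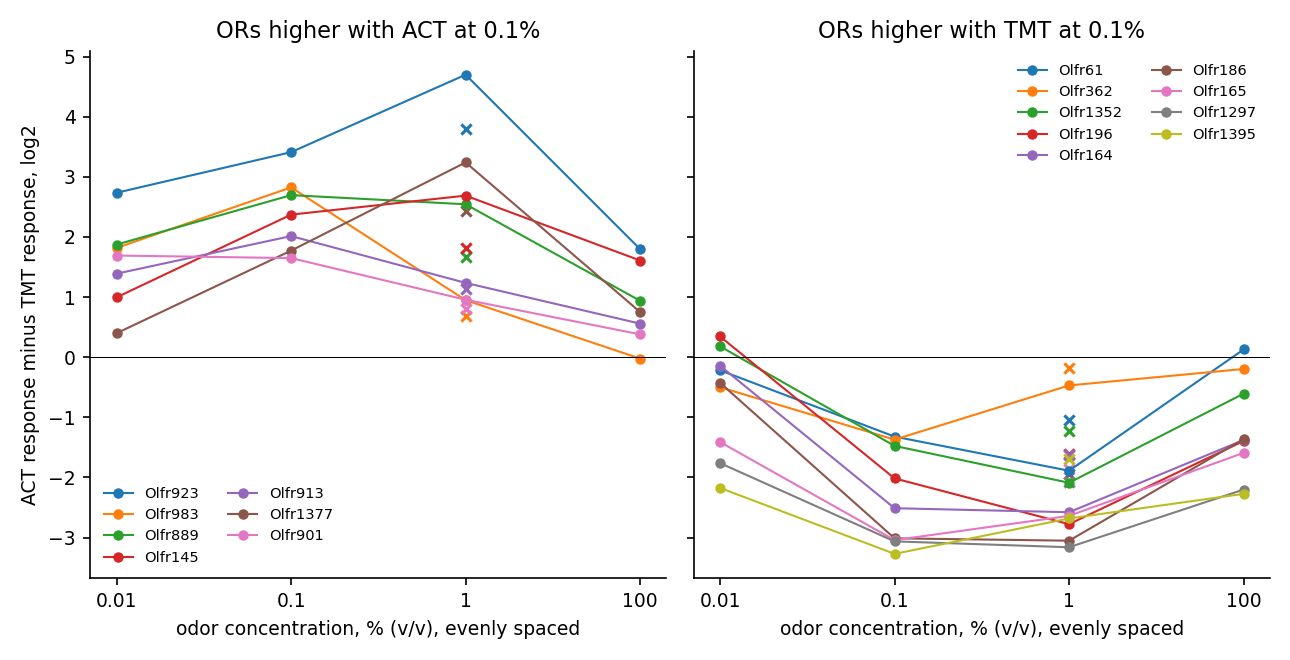
ACT response minus TMT response (y axis, log2) of the 16 ORs at each concentration (x axis, evenly spaced); dots and lines at 1% leave out the ACT litter 1, and crosses show all litters. The ORs higher with ACT at 0.1% (left) are above 0 at 0.01%, 0.1% and 1%, those higher with TMT (right) are below 0 at 0.1% and 1%, and 0.01% shares its no odor mice with 0.1%, as 100% does with 1%.

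The positions of the 16 ORs were read by gene cluster. The 1082 ORs placed uniquely by GENCODE M21 were grouped into 49 clusters with gaps of at least 1 Mb. Of these clusters, 9 held an OR with a difference and 0 held ORs of both kinds. With most ORs higher with ACT in 1 cluster, few clusters could hold both kinds, so no separation of the odorants is read from this count. It was not tested. A cluster on chromosome 9, with 95 ORs from Olfr160 to Olfr986 at chr9:37708964-40190134, held 6 of the 7 ORs higher with ACT, namely Olfr145, Olfr889, Olfr901, Olfr913, Olfr923 and Olfr983. That is 6 of 95 ORs, against 7 of all 1088 (0.643%), and was not tested. Yet the median difference of these 95 ORs was 0.0136, with 50 above 0 and 41 below. The ORs around the 16 spread to both sides: of those up to 2 genes away, 42 had a mean normalized count of at least 20 and no difference past the test, and their differences had a median of 0.0609. The lowest among them was that of Olfr56, near Olfr1395, and the highest, 1.99, that of Olfr890 next to Olfr889.

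The ORs higher with TMT were more scattered. A cluster of chromosome 16 with 26 ORs, from Olfr172 to Olfr209 at chr16:58759544-59363993, held Olfr186 and Olfr196. This cluster thus had 2 such ORs among 26, against 9 among all 1088 (0.827%). Its ORs had a median difference of -0.556, with 7 above 0 and 19 below, which was the lowest median of the 21 clusters with at least 10 ORs. The median response was -0.179 to ACT and 0.353 to TMT, and the level without odor was higher in the ACT litters, with a median of 0.24. At 1%, in other mice, the median difference of this cluster was -0.428, or -0.576 without the ACT litter 1. Olfr164 and Olfr165 were in another cluster of 8 ORs on this chromosome, whose median difference was 0.165. Olfr1297 was in a cluster of 36 ORs and Olfr1395 in one of 19, with medians of -0.0175 and -0.102.

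The olfactory mucosa expresses ORs in zones from dorsal to ventral, and total RNA of dorsal and ventral mucosa (3 libraries each) gave the zone of each OR. Over 1087 ORs, 407 were dorsal (37.4%) and 404 ventral (37.2%) in edgeR's test with the replicate number as a block. The study's own analysis found more ventral than dorsal ORs. Of the 7 ORs higher with ACT, 3 were dorsal (Olfr923, Olfr145 and Olfr1377), 1 ventral (Olfr913) and 3 neither. Olfr923 had a log2 ratio of dorsal to ventral of 4.41 (adjusted p = 0.000152) and Olfr913 of -1.76 (adjusted p = 0.037). The 3 in neither zone were not past the test, with ratios of -0.85 (Olfr889), -0.73 (Olfr901) and -0.64 (Olfr983). Of the 9 ORs higher with TMT, 0 were dorsal, 6 ventral (Olfr1297, Olfr1352, Olfr165, Olfr186, Olfr362 and Olfr61) and 3 neither. Among the latter, the ratio of Olfr1395 was -1.13 (adjusted p = 0.082), that of Olfr164 -0.99 and that of Olfr196 -1.14. Among all dorsal ORs the median difference was -0.0158 and among all ventral ORs 0.0181, and the zones of the 16 ORs were not compared by a test.

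All 16 ORs were class II, like most of the ORs measured (963 of 1088), so no preference for a class is read from this. Of the 125 class I ORs measured, a group of fish-like receptors of the dorsal zone, 0 passed in either direction, and their median difference was -0.0693, with medians of -0.00944 for ACT and 0.122 for TMT. The study's supplement gives the responses of ORs to ACT in a luciferase assay in cultured cells, and ORs above the study's threshold at the highest dose were taken here as activated, a number slightly unlike the study's own. Of 106 such ORs, 4 were higher with ACT (3.77%: Olfr1377, Olfr145, Olfr923 and Olfr983) and 1 with TMT (Olfr61). Of the 410 tested in cells without activation, 2 were higher with ACT (0.488%: Olfr889 and Olfr901) and 5 with TMT (1.22%). The median difference was 0.0157 among the activated ORs and -0.0308 among the others, against -0.00369 over all ORs. A list of 86 ORs enriched by ACT in earlier mice held 5 of the 7 ORs higher with ACT, without Olfr889 and Olfr913, which is 5.81% of the list against 0.643% of all ORs. It held 1 of the 9 higher with TMT, Olfr196, which is 1.16% against 0.827%. The median difference of this list was 0.0862. According to the study, the earlier work used another antibody against pS6 and another read pipeline. Its list is of enrichment by ACT, not set against TMT, and was not matched here for dose.

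The direction of the difference was the same for all 16 ORs under 15 other settings, but the calls were not. Olfr923, Olfr983, Olfr1395, Olfr1297, Olfr165 and Olfr186 passed under all 15, whereas Olfr362 passed under 5 and Olfr61 under 6. Without litter 3 of the TMT experiment, 2 ORs were higher with ACT (Olfr923 and Olfr983) and 7 with TMT; without litter 1 of the ACT experiment, 4 and 9. Without the litter block, 4 and 6 passed, and Olfr1377, Olfr901, Olfr913, Olfr1352, Olfr362 and Olfr61 did not. With the 0.01% libraries added to the fit, 3 and 4 passed.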

How the data were processed

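Expected counts on ORs from pS6-IP-Seq of the olfactory epithelium were used. The authors mapped 50-base reads to GRCm38 with STAR and counted them with RSEM (the labels also name edgeR), with UTRs added to the OR models, and deposited these expected counts rounded to whole numbers, for 1088 intact ORs. The tables also hold the authors' own comparisons (fold changes, p-values and FDR values), which were not used. The 12 libraries held 63971 to 117967 counts on ORs. Samples were grouped by their odor labels, and the no odor mice by their titles and the authors' R code.

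The counts of both experiments were joined by gene name, scaled by TMM over the ORs and fitted together with edgeR 4.0.16 (R 4.3.3; glmQLFit, robust, and glmQLFTest, two-sided), without a filter on low counts, with a block of 6 litters and a coefficient for each odorant. ORs without a count got a p of 1, which concerns 13 ORs. Adjustment was by Benjamini and Hochberg over all ORs. The SE is the log2 change divided by the square root of F and restates the test. For normalized counts, each count was divided by its library's effective size and multiplied by the geometric mean of those sizes. Changes by litter used a pseudocount of 1. The test was checked on simulated data. Other concentrations and the dorsal and ventral libraries, on the authors' expected counts as well, were fitted in the same way. Alternatives were DESeq2 1.42.0, other scalings and tests, a filter, no block, and leaving out each litter.

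Pairing by litter follows the paper, which describes littermates for each replicate. Same-numbered libraries had correlations of their deviations from the group mean of 0.0425 to 0.305 in the ACT experiment and 0.0757 to 0.146 in the TMT experiment, against -0.317 to 0.21 (median -0.0734) and -0.136 to 0.0397 (median -0.0499) for different numbers (897 ORs). In the ACT experiment these ranges overlap. No pair of libraries was identical. The p-values rest on 3 mice per group, or fewer where a litter was left out.

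Clusters came from GENCODE M21 (GRCm38). Coding sequences were compared with biotite 1.4.0, for the closest ORs among 12 candidates with the most 8-base words in common. Python 3.11.15, numpy 2.4.6, pandas 2.3.3 and matplotlib 3.10.9 were used. Named ORs are those whose difference passed, those that passed for one odorant alone, the 3 next to the threshold, ORs that the study or earlier work names, and those with the largest change of the difference from 0.1% to 1%. Other ORs (close relatives, neighbours, ORs that passed at other concentrations) were named after their values were seen. The members and lists were chosen with earlier results of these data known.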

Additional observations from a re-analysis of the deposited data

How the results depend on the processing

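For all 16 ORs the difference kept its sign in 15 alternatives at 0.1%. ORs higher with ACT (7) and with TMT (9) numbered 7 and 9 with DESeq2 size factors or a low-count filter, 7 and 10 with total counts only, 9 and 11 by edgeR's likelihood ratio test, 7 and 7 without robust estimation, 6 and 9 by DESeq2, and 4 and 6 with no replicate block. With the 0.01% libraries added there were 3 and 4, and without single litters 2 to 9 and 6 to 9. Rises with ACT (10) came to 3 with the 0.01% libraries and 5 to 12 without single litters. The 1 fall with ACT came to 0 without robust estimation, by DESeq2, with no replicate block and with the 0.01% libraries, and to 0 to 2 without single litters. Rises with TMT (10) came to 4 with the 0.01% libraries and 8 to 16 without single litters. The 3 falls with TMT came to 0 with no replicate block and with the 0.01% libraries, and to 0 to 4 without single litters. At 1%, leaving out ACT litter 1 moved the counts from 0 and 2 to 12 and 28, and for the change from 0.1% to 1% the lower count from 0 to 1. Fits of 1 concentration without a litter leave 3 residual degrees of freedom, and that of the change from 0.1% to 1% without ACT litter 1 leaves 7. The cause of these changes was not tested.

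Differences that changed sign, all far from the threshold, were those of Olfr837 (0.38 with no replicate block, -2.06 to 1.54 without single litters), Olfr376 (-0.82 to 0.0047 without single litters), Olfr1160 (-0.72 to 0.93), Olfr1019 (-0.57 to 0.20), and, between the ACT and TMT mice directly, Olfr1276 (-0.91) and Olfr288 (-0.96). Where an OR had fewer than 20 normalized counts, depth limits what could be seen.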
